A study of Rattus norvegicus with 4 samples.

Results

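The matrix metalloproteinases described here are 10 rat genes, Mmp2, Mmp3, Mmp7, Mmp9, Mmp10, Mmp11, Mmp12, Mmp13, Mmp14 and Mmp23. They were chosen by name as a family whose levels on these arrays had already been seen, and Mmp7 was known to read lower on the arrays numbered 2. The family was taken from 35667 genes and unnamed transcripts with a probe, of which 22049 passed the detection filter and were tested. All 10 members passed that filter. They were read by 11 probes on 29 spots per array, since Mmp2 had 2 probes and Mmp2 and Mmp9 each had a probe printed on 10 spots.

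Matrix metalloproteinases are zinc-dependent endopeptidases that cut collagens, laminins, proteoglycans and other proteins outside the cell. Most are secreted as inactive precursors that another protease must cleave, some are anchored in the plasma membrane, and tissue inhibitors of metalloproteinases (TIMPs) block the active enzymes. In the testis, peritubular myoid cells and Sertoli cells lay down the wall of the seminiferous tubule together, and that wall is built of proteins these enzymes cut.

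Peritubular myoid cells, the contractile cells around the tubule, came from testes of 40-day-old rats and were cultured for 4 days in a defined medium with growth factors. The arrays fall into 2 groups, cells given 1e-07 M testosterone in pulses (2 arrays) and control cells (2 arrays). The labels do not say what the control cells received in place of the hormone, nor whether the arrays numbered 1 and 2 in each group stand for different animals or cultures, and any p-value then covers array-to-array spread alone, possibly technical. No genotype or strain contrast was made, and both groups shared the animals' age, the medium and the culture time.

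Between 63.5% and 68.2% of the non-control spots on each array were well above background, the scanner software's call of a signal clearly over its local background. All 4 arrays lay on 1 slide. The arrays numbered 2 took the slide's positions 1 and 2 and those numbered 1 took positions 3 and 4, so number and position cannot be told apart. Control replicate 1 had noisier replicated spots than the others (coefficient of variation 9.52%, against 5.25% to 5.53%), and its array columns 57 to 85 had been marked as damaged in earlier work on these data. Of the 9 markers of peritubular myoid and smooth muscle cells, 6 were well above background on every array and were tested, Cnn1 (calponin) was not well above background on any, and Acta2 and Myh11, the defining contractile markers, had no probe. Each level below is the log2 processed signal of a probe minus its array's 75th percentile, so a difference of 1 is 2-fold, and levels are compared between arrays but never between probes.

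No member passed the test between testosterone and control. Most members differed between the arrays numbered 2 and those numbered 1 in both treatments, but so did many of all genes. Over all genes tested, both arrays numbered 2 were higher in 38.4% and lower in 24.8%. The 8 members whose brightest probe was unsaturated are called the unsaturated members. Their testosterone difference ran between -0.31 and 0.41 with a median of 0.04, and the median over all genes tested was -0.01. Mmp2 is not among them, as its brighter probe was saturated. Its dimmer, unsaturated probe stood at 0.58 (limma, unadjusted p = 0.0448), with both testosterone arrays above both control arrays, and failed correction over all genes. None of these 8 passed limma's test at an adjusted p under 0.05 (adjusted p = 1.00 for each), and 0 had an unadjusted p under 0.05. The background was 0% of 22049 genes called at the adjusted threshold and 0.798% (176 genes) at an unadjusted p under 0.05. Without control replicate 2 limma called 35 genes, none of them a member. In 0 of the 8 were both testosterone arrays above both control arrays, against 6.08% of all genes, and in 0 were both below, against 9.11%. With 2 arrays against 2, an exact permutation test cannot go below a 2-sided p of 0.333, so none is given.

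The number difference was larger in size than the testosterone difference in 7 of the 8 unsaturated members. No share over all genes stands beside that count, so nothing is read from it. The number difference was used in choosing the genes, so it is given as a description with no test. Both arrays numbered 2 were higher in 4 members (Mmp3, Mmp9, Mmp13 and Mmp23), against 38.4% of all genes, and lower in 3 (Mmp7, Mmp11 and Mmp12), against 24.8%. At a difference of at least 2-fold there were 2 higher (Mmp13 and Mmp23), against 4.52% of all genes, and 1 lower (Mmp7), against 0.893%. At 1.5-fold there were 4 higher (against 13.6%) and 1 lower (against 4.65%), and at 3-fold 1 higher (Mmp13, against 1.34%) and 1 lower (against 0.127%). Nothing is read from these shares, since Mmp7 was picked for this contrast. The median size of the number difference was 0.81 in the 8 members and 0.26 over all genes, on the log2 scale and regardless of sign.

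**Figure D1:**
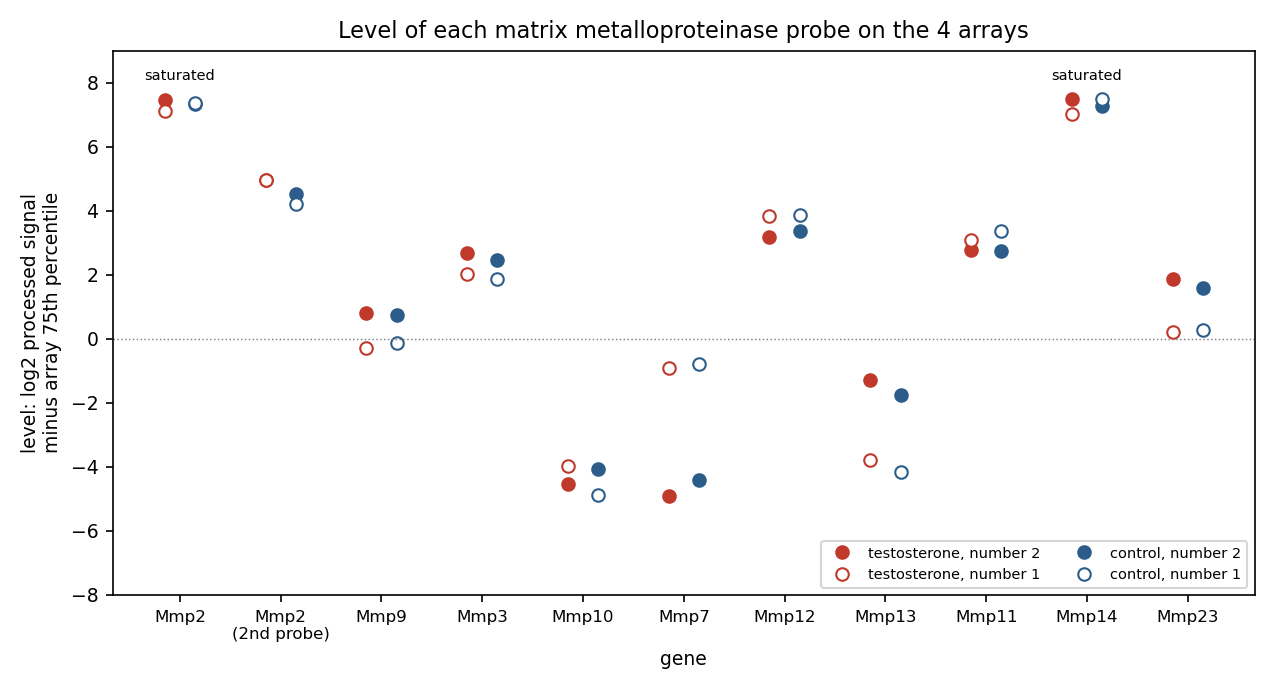
Level of each of the 11 probes on the 4 arrays (log2 processed signal minus the array's 75th percentile), with testosterone left of control for each probe filled circles for number 2 and open circles for number 1. Mmp7 sits at -4.92 and -4.41 on the arrays numbered 2 and at -0.90 and -0.79 on those numbered 1, and Mmp13 runs the other way.

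Gelatinases, which cut denatured collagen and the type IV collagen of basement membranes, were represented by Mmp2 and Mmp9. Mmp2, the constitutively made gelatinase A, had its brighter probe on chromosome 19 (15246221 to 15246280, minus strand, build rn4). That probe read 7.12 and 7.47 in testosterone cells and 7.36 and 7.32 in control cells. The groups overlapped. The scanner was saturated on all 4 arrays, so these are lower bounds and no fold is given.

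The dimmer probe of Mmp2, for which the files give no position, was unsaturated and read 4.95 and 4.95 in testosterone cells, against 4.22 and 4.53 in control cells. Both testosterone arrays were above both control arrays. The means were 4.95 ± 0.001 and 4.37 ± 0.22 in testosterone and control cells (SD, n = 2 each). The difference was 0.58 (95% interval 0.02 to 1.13), which failed correction over all genes in limma (unadjusted p = 0.0448, adjusted p = 1.00). It was 0.42 between the arrays numbered 2 and 0.73 between those numbered 1. The probe lay in array columns 57 to 85, and its lowest reading was on control replicate 1. Without that array the difference was 0.42. This probe was singled out after its values were seen, and the part of the damaged columns in its difference was not tested.

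Mmp9, gelatinase B, lay on chromosome 3 (155992463 to 155992522, plus strand, rn4). It read -0.29 and 0.82 in testosterone cells and -0.14 and 0.73 in control cells. The treatments overlapped, and both arrays numbered 2 were higher. Testosterone minus control was -0.03 (95% interval -1.39 to 1.34). Mmp9 averaged 0.78 ± 0.07 on the arrays numbered 2 and -0.22 ± 0.10 on those numbered 1 (SD, n = 2 each), which is 1.99-fold higher on number 2. The same direction held within testosterone (1.11) and within control (0.87).

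The 10 spots of the Mmp9 probe show how well 1 array repeats its own reading. Spots ran from 0.66 to 0.88 on testosterone replicate 2 and from -0.34 to -0.25 on testosterone replicate 1, where 8 spots were kept after the outlier flags. They ran from 0.60 to 0.79 on control replicate 2 and from -0.26 to -0.004 on control replicate 1. No spot of an array numbered 2 fell among those of an array numbered 1. The spread within an array (SD 0.04 to 0.09) was small against the number difference of 0.99. Spots of 1 array share their labelled RNA and are not replicates of a condition.

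**Figure D2:**
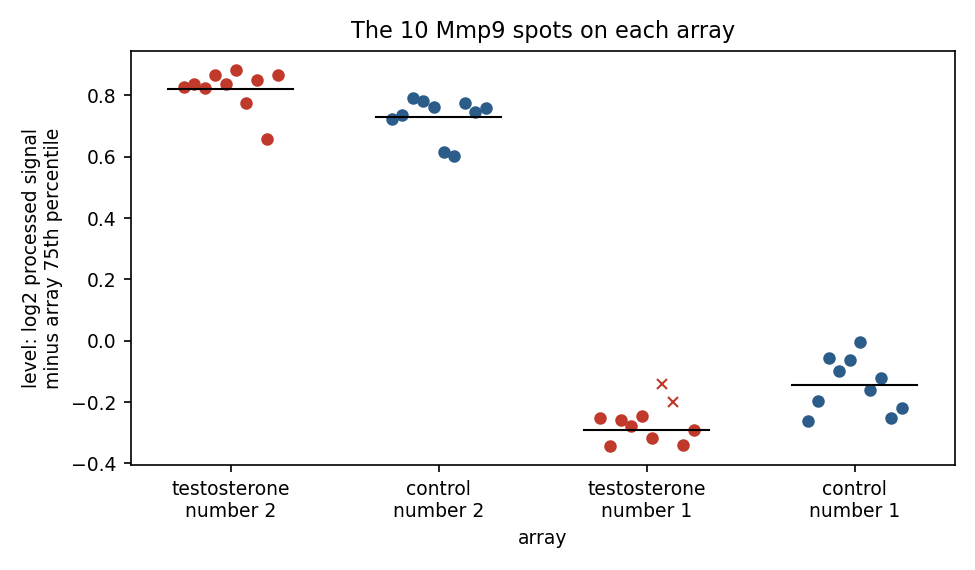
Level of each kept spot of the Mmp9 probe on each array (log2 relative to the array's 75th percentile), with the arrays numbered 2 left of those numbered 1, lines at the means and crosses for 2 spots left out as outliers. The spots of the arrays numbered 2 lie between 0.60 and 0.88 and those of the arrays numbered 1 between -0.34 and -0.004.

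Stromelysins cut proteoglycans, laminin and fibronectin and can activate other members, and Mmp3, Mmp10 and Mmp11 were measured. Mmp3, stromelysin 1, lay on chromosome 8 (4325061 to 4325526, plus strand, rn4, a span longer than the 60-base probe, as for a probe across a splice junction). It read 2.04 and 2.70 in testosterone cells and 1.87 and 2.46 in control cells. The treatments overlapped, and the arrays numbered 2 were the higher ones in each. The testosterone difference was 0.20 (95% interval -0.73 to 1.13), and Mmp3 was 1.54-fold higher on number 2, by 0.65 within testosterone and 0.59 within control.

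Mmp10, stromelysin 2, lay in the same stretch of chromosome 8 (4373403 to 4374134, plus strand, rn4). It read -3.98 and -4.52 in testosterone cells and -4.87 and -4.06 in control cells. No pair of arrays stood apart by treatment or by number. The testosterone difference was 0.21 (95% interval -0.79 to 1.21), but -0.46 between the arrays numbered 2 and 0.89 between those numbered 1. Mmp10 was among the dimmest members against background, with a smallest margin of 0.69 on the log2 scale over the lowest signal that the array called well above background.

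Mmp11, stromelysin 3, which is activated inside the cell by furin and cuts matrix proteins poorly, lay on chromosome 20 (13138152 to 13138211, plus strand, rn4). It read 3.08 and 2.79 in testosterone cells and 3.38 and 2.75 in control cells. Both arrays numbered 2 were lower, by 1.37-fold on average, and the treatments overlapped. Testosterone minus control was -0.13 (95% interval -0.92 to 0.65). Its probe lay in columns 57 to 85, and its highest reading was on control replicate 1.

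Mmp7, matrilysin, a small member that lacks the hemopexin domain, is made mainly by glandular epithelia and is known from other studies to process cell-surface proteins as well as matrix. Its probe lay on chromosome 8 (4533647 to 4533706, plus strand, rn4). It read -0.90 and -4.92 in testosterone cells and -0.79 and -4.41 in control cells. Within each treatment 1 array was high and 1 low, and the low one was the array numbered 2. Mmp7 averaged -4.67 ± 0.36 on the arrays numbered 2 and -0.84 ± 0.07 on those numbered 1 (SD, n = 2 each). It was 14.2-fold lower on number 2, with a difference of -4.03 within testosterone and -3.62 within control.

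Between treatments Mmp7 averaged -2.91 ± 2.85 in testosterone cells and -2.60 ± 2.56 in control cells (SD, n = 2 each). The difference was -0.31, with a 95% interval of -5.23 to 4.62, or 0.0266-fold to 24.6-fold. Its width comes from the gap between numbers within each treatment. With the replicate number as a block the interval was -0.81 to 0.19, or 0.572-fold to 1.14-fold (limma, unadjusted p = 0.160, adjusted p = 1.00). Within number the differences were -0.51 (number 2) and -0.11 (number 1).

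The number difference in Mmp7 was smaller in size with normexp background correction than in the other settings. The lower readings were well above background by the scanner's call, with a margin of 0.69 over the lowest such signal. With normexp background correction (offset 50) and quantile normalization the difference was -2.06. With quantile normalization of processed signals alone the difference was -3.996. A floor at the lowest signal well above background left it at -3.82, as no reading of Mmp7 was below that floor. Over all genes tested, 2 differed by -3.5 or further (0.00907%), Mmp7 and the transcript listed as RGD1563270_predicted, whose -4.84 was the largest fall and which was chosen after its values were seen.

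Mmp12, macrophage elastase, which cuts elastin, lay on chromosome 8 (4259057 to 4259413, plus strand, rn4). It read 3.83 and 3.17 in testosterone cells and 3.86 and 3.36 in control cells. Both arrays numbered 2 were lower, by 1.49-fold on average, and the treatments overlapped. The testosterone difference was -0.11 (95% interval -0.996 to 0.777). Of 10 macrophage and leukocyte markers, 9 had a probe and all 9 were well above background in the test. Their summed signal, relative to each array's 75th percentile, was 128.4 and 133.5 on testosterone and control replicate 2, against 159.7 and 179.1 on testosterone and control replicate 1. Both arrays numbered 2 were lower in 5 of these markers (against 24.8% of all genes) and higher in 4 (against 38.4%). The part of macrophages in the Mmp12 reading was not tested, and in bulk RNA fewer cells of a type and less RNA per cell cannot be told apart.

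Mmp13, the interstitial collagenase of rodents, cuts fibrillar collagen. Its probe, designed on an Ensembl transcript, lay on chromosome 8 (4168554 to 4168613, plus strand, rn4). It read -3.79 and -1.29 in testosterone cells and -4.17 and -1.74 in control cells. Both arrays numbered 2 were high and both numbered 1 low, the reverse of Mmp7. Mmp13 averaged -1.52 ± 0.32 on the arrays numbered 2 and -3.98 ± 0.27 on those numbered 1 (SD, n = 2 each), which is 5.52-fold higher on number 2. The difference was 2.50 within testosterone and 2.43 within control.

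The testosterone difference in Mmp13 was 0.41 (95% interval -2.78 to 3.61). It was alike in both pairs of arrays, 0.45 for number 2 and 0.38 for number 1. With the replicate number as a block, the interval narrowed to 0.00 to 0.82 (limma, unadjusted p = 0.0488, adjusted p = 1.00). With normexp and quantile normalization the number difference was 1.23.

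Mmp14, a membrane-anchored enzyme (MT1-MMP), cuts collagen at the cell surface and activates the precursor of Mmp2 in a complex with Timp2. It lay on chromosome 15 (32503012 to 32503071, plus strand, rn4). It read 7.02 and 7.48 in testosterone cells and 7.50 and 7.28 in control cells. The groups overlapped, and as the probe was saturated on all 4 arrays, no fold is given. Timp1 and Timp2 were also saturated on all 4 arrays, so the bright end of this system has only lower bounds.

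Mmp23, a membrane-bound member with an unusual domain order, lay on chromosome 5 (172487032 to 172487091, minus strand, rn4). It read 0.21 and 1.86 in testosterone cells and 0.27 and 1.60 in control cells. Both arrays numbered 2 were high, at 2.80-fold the level of those numbered 1, by 1.65 within testosterone and 1.33 within control. The testosterone difference was 0.10 (95% interval -1.87 to 2.07).

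**Figure D3:**
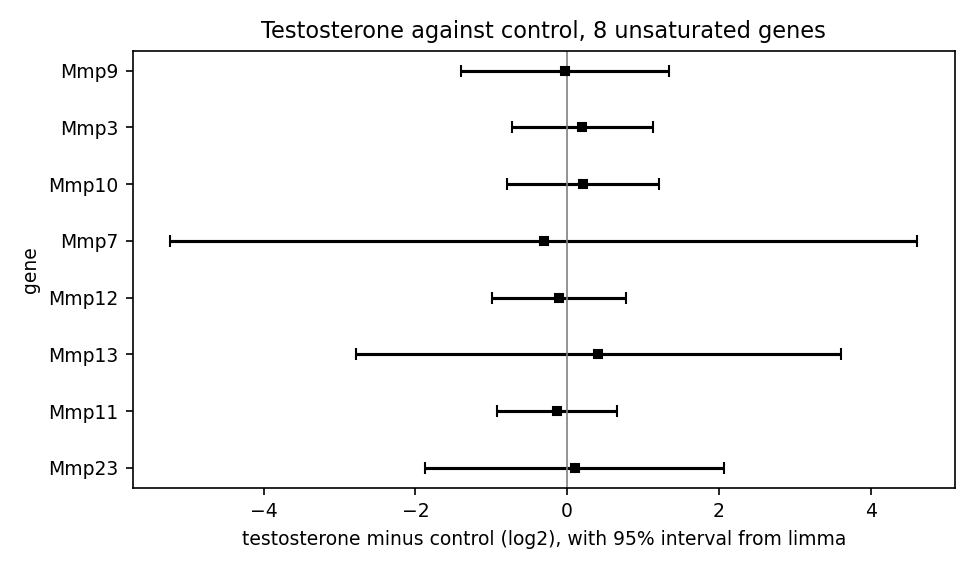
Testosterone minus control for the 8 unsaturated genes (log2), with squares for the difference of means and bars for limma's 95% interval. The squares lie between -0.31 and 0.41 and each interval crosses 0, most widely for Mmp7 (-5.23 to 4.62) and Mmp13 (-2.78 to 3.61).

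The width of these intervals holds the spread between numbers 2 and 1, the contrast used in choosing the genes. The half-width of the 95% interval had a median of 1.18 in the 8 unsaturated members and 0.64 over all genes. With the replicate number as a block it was 0.45 in the 8 members and 0.45 over all genes, with a range of 0.41 to 1.04 in the members, the widest being Mmp10. In 4 of the 8 the testosterone difference had the same sign in both numbers. This count too has no share over all genes beside it, and nothing is read from it.

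**Figure D4:**
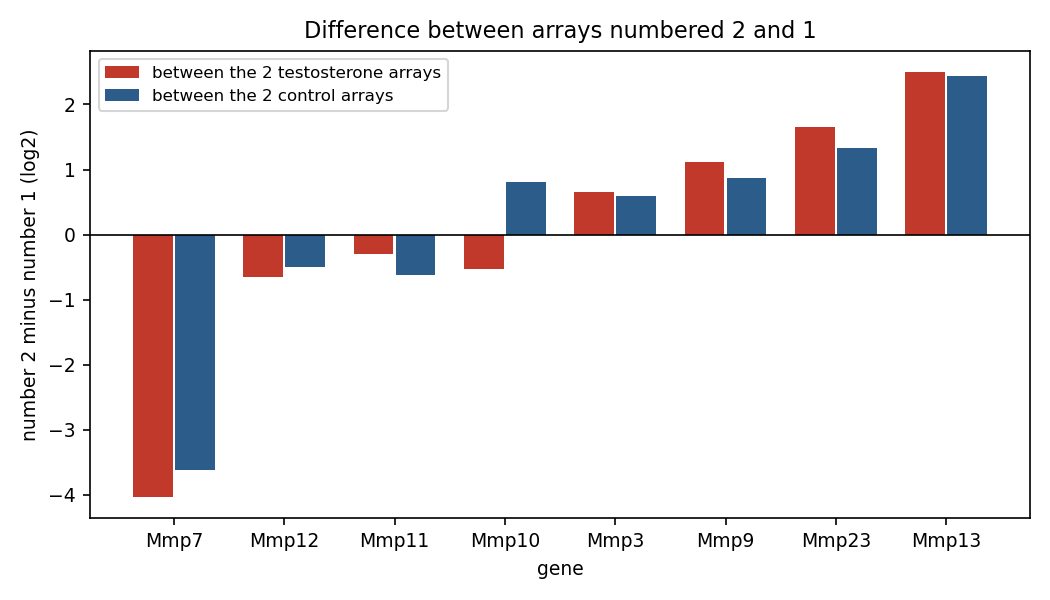
Number 2 minus number 1 within testosterone and within control for the 8 unsaturated genes (log2). Mmp7 (-4.03 and -3.62) and Mmp13 (2.50 and 2.43) lie farthest from 0 on opposite sides, and Mmp10 changes sign between testosterone (-0.54) and control (0.81).

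A cluster of metalloproteinase genes on chromosome 8 held 5 of the 8 unsaturated members. Along 365.1 kb of rn4, 10 probes of the family followed each other in the order Mmp13, Mmp12, Mmp1b, Mmp3, Mmp1a, Mmp10, Mmp8, Mmp27, Mmp20 and Mmp7. Of these, 7 were well above background on all 4 arrays, and Mmp1a, Mmp8 and Mmp20 were not on any. The largest number differences in the cluster stood at its ends, 2.46 in Mmp13 and -3.82 in Mmp7. Between them the differences were -0.58 in Mmp12, 0.27 in Mmp1b, 0.62 in Mmp3, 0.14 in Mmp10 and 0.66 in Mmp27, which was not among the related genes listed and was added after its values were seen. Directions were thus mixed along the cluster.

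**Figure D5:**
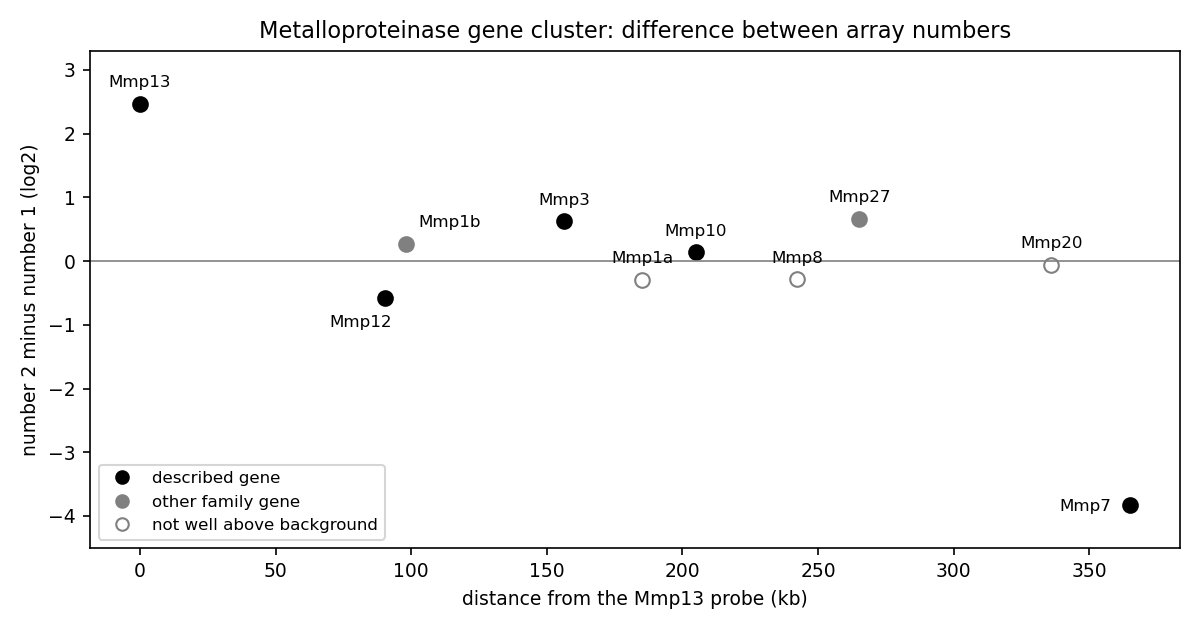
Number 2 minus number 1 (log2) for the 10 metalloproteinase probes of the chromosome 8 cluster, by distance in kb from the first probe. Black circles are described genes and grey ones other family genes. Open circles are Mmp1a, Mmp8 and Mmp20, not well above background on any array. The first gene, Mmp13, lies at 2.46 and the last, Mmp7, at -3.82.

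Promoter sequences from RefSeq (build GRCr8, 250 bases before to 50 after the gene start) matched 7 of the 10 members, Mmp3, Mmp7, Mmp10, Mmp11, Mmp12, Mmp13 and Mmp23. Those of Mmp13 and Mmp7 are shown because the 2 genes differed in opposite directions between numbers, those of Mmp3 and Mmp12 as neighbours with small differences of opposite sign, and that of Mmp23 as a member outside the cluster. Capitals mark AP-1 motifs (TGAGTCA or, on the other strand, TGACTCA) and TATA boxes (TATAAA on the gene's strand). The windows are chr8:12782579-12782878 for Mmp13, chr8:12866402-12866701 for Mmp12, chr8:12925031-12925330 for Mmp3 and chr8:13132793-13133092 for Mmp7, each on the plus strand, and chr5:171524485-171524784 on the minus strand for Mmp23.
Mmp13: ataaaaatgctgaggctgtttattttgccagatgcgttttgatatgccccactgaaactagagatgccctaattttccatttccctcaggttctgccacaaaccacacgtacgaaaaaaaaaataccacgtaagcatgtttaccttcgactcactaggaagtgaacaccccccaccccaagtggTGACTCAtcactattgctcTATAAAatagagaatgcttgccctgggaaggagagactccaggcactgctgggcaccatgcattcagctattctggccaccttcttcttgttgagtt
Mmp7: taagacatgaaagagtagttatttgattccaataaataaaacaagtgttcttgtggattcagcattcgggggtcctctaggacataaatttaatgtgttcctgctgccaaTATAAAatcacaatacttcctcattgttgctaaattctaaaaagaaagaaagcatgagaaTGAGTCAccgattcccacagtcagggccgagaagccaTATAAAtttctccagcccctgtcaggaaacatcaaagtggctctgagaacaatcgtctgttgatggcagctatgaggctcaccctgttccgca
Mmp12: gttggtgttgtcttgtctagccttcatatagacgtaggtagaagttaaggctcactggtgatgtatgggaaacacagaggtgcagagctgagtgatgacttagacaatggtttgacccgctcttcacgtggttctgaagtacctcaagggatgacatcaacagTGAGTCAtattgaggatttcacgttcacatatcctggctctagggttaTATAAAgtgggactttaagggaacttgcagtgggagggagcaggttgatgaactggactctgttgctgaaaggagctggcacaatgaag
Mmp3: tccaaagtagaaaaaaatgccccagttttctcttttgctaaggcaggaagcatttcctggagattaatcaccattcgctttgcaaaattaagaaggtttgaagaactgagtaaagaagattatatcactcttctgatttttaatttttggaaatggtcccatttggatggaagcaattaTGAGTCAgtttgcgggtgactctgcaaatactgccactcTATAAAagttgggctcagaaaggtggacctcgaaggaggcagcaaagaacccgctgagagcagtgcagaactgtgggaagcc
Mmp23: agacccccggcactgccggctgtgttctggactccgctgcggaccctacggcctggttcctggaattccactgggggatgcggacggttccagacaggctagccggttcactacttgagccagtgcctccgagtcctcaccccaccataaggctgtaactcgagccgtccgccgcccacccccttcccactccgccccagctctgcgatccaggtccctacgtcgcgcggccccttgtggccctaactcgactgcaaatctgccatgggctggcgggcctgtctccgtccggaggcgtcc

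An AP-1 motif, the binding letters of Fos and Jun dimers, stood in 5 of the 7 promoters (Mmp3, Mmp7, Mmp10, Mmp12 and Mmp13), and in 4.63% of 33469 promoters of the same length. In these 5 it lay 61 to 87 bases before the gene start, 66 in Mmp13 and 80 in Mmp7. The same 5 promoters held a TATA box, against 8.80% of all promoters. The Mmp23 promoter had neither, and with that of Mmp11 held the GC box GGGCGG, against 33.1% of all promoters. The Ets motif AGGAAG stood in 3 (Mmp3, Mmp7 and Mmp13), against 34.5%. The androgen response half-site AGAACA stood in 3 (Mmp7, Mmp11 and Mmp23), against 20.7%. All but the TATA box were searched on both strands, and no 2 matches overlapped. Mmp13 and Mmp7 both held the AP-1, Ets and TATA letters. The part of any motif in the number differences was not tested. A match describes letters and does not show that a factor binds there.

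The genes whose 4 levels, centred on their mean, were most like those of Mmp7 were Clic6 (a chloride intracellular channel), Cnmd (chondromodulin), Aldh1a3 (a retinaldehyde dehydrogenase), Stap1 (a signalling adaptor) and Ntrk2 (the receptor of BDNF). They were picked for this likeness, so their lower readings on number 2 follow from the choice. The root mean square difference from Mmp7 ran from 0.91 in Clic6 to 1.14 in Ntrk2, over 4 arrays and 10461 candidates, the genes with a reference symbol that were well above background on both arrays numbered 1. Transcripts without a reference symbol were not candidates, and 4 of them had a larger number difference than Clic6, RGD1563270_predicted and 3 more between -2.37 and -2.23. Clic6 was 4.09-fold lower on number 2, with levels of -4.84 and -4.37 on testosterone and control replicate 2, against -2.87 and -2.26 on testosterone and control replicate 1. The other 4 were 2.92-fold to 3.47-fold lower on number 2, so each differed less than Mmp7 as read. Cnmd (3.47-fold) and Ntrk2 (2.92-fold) were well above background on 3 arrays each. On testosterone replicate 2 they read -5.91 and -5.60, where the lowest signal called well above background was -5.61. Their folds thus rest on readings near background.

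The inhibitors, activators and related proteases were listed beside the members, 45 genes of which 33 were tested. In the 31 of these with no saturated array the testosterone difference was positive in 14 and negative in 17, with a median of -0.01 beside -0.01 over all genes, and limma called 0. Of 7 inhibitors 6 were tested, and of the 4 unsaturated ones 3 were positive and 1 negative. Tfpi2, a secreted protease inhibitor, had the inhibitors' largest testosterone difference (0.44, 95% interval -0.24 to 1.11), on a probe in columns 57 to 85. Of 11 activators and their regulators 9 were tested, 3 positive and 6 negative. Of 12 other members of the family 6 were tested, 3 positive and 3 negative, with Mmp28 at 0.43 and Mmp24 at -0.33, both on probes in columns 57 to 85. Mmp28 was at -0.06 without testosterone replicate 1, and Mmp24 at -0.09 without control replicate 1. Of 15 ADAM and ADAMTS proteases 12 were tested, 5 positive and 7 negative.

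Between numbers, 4 of these 31 genes were at least 2-fold higher on number 2 (12.9%, against 4.52% of all genes) and 0 at least 2-fold lower (against 0.893%). A2m, the plasma inhibitor that traps proteases of all classes, read 3.54 and 3.33 on testosterone and control replicate 2, against 0.85 and 0.79 on testosterone and control replicate 1. Serpinb2, an inhibitor of the plasminogen activator urokinase, read 1.03 and 0.52 on testosterone and control replicate 2, against -1.91 and -2.33 on testosterone and control replicate 1. Both stood high on number 2 in each treatment, like Mmp13. Plau, which encodes urokinase, ran the other way with a number difference of -0.75. Adamts9 and Adamts7, which cut matrix proteins, differed by 1.45 and 1.06.

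Substrates and inducers gave 27 tested genes of 29, and 21 of them had no saturated array. Of these 21, 12 had a positive and 9 a negative testosterone difference, and limma called 0. Among 14 tested substrates the largest testosterone difference was in the laminin chain gene Lamb2 (0.89), whose probe lay in the damaged columns. Lamb2 read 3.72 and 3.66 in testosterone cells and 1.91 and 3.69 in control cells, so control replicate 1 alone set that difference. The collagen gene Col1a1, saturated on 1 array, likewise read lowest on control replicate 1. Between numbers the proteoglycan gene Vcan differed by 1.56. Among 13 inducers, the cytokine genes Il1b and Il6, whose products are known to raise several metalloproteinases in mesenchymal cells, differed by 1.95 and 1.61 between numbers. Fosl1, a partner in AP-1, differed by -0.73. Of these 21 genes 3 were at least 2-fold higher on number 2 (14.3%, against 4.52% of all genes) and 0 lower (against 0.893%).

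Summed marker signals of some other cell types also differed between numbers, among them Sertoli and endothelial markers, higher on both arrays numbered 2. Fibroblast sums overlapped, at 109.4 and 118.2 on testosterone and control replicate 2, against 106.5 and 112.4 on testosterone and control replicate 1. So did the sums of peritubular myoid and smooth muscle markers, in the same order 67.9 and 77.6, against 58.4 and 69.4. The summed germ cell signal, relative to each array's 75th percentile, was 4.84 on each array numbered 2, against 0.440 and 0.413 on testosterone and control replicate 1. Of 6 germ cell markers 5 had a probe and 4 were tested. Of these 4, 3 (Tnp1, Prm1 and Ldhc, genes of spermatids and spermatocytes) were at least 2-fold higher on number 2, against 4.52% of all genes. On the arrays numbered 2 Tnp1 made up most of the sum, but not on those numbered 1. Without Tnp1 the sum was 1.83 and 1.82 on testosterone and control replicate 2, against 0.346 and 0.269 on testosterone and control replicate 1. Ddx4, an early germ cell gene, overlapped, at -3.83 and -3.96 on testosterone and control replicate 2, against -2.56 and -7.59 on testosterone and control replicate 1. Acrv1 stayed below that call on every array. Of 8 epithelial and mesothelial markers 7 had a probe and 4 were tested. Their summed signal was 1.07 and 0.982 on testosterone and control replicate 2, against 0.302 and 0.337 on testosterone and control replicate 1. Msln, which encodes mesothelin, made up most of that difference, and without it the sums were 0.419 and 0.323 on testosterone and control replicate 2, against 0.269 and 0.294 on testosterone and control replicate 1. Of the 4 tested, Msln and Krt19 were higher on number 2 without overlap, Krt8 and Krt18 overlapped, and Wt1 stayed below that call on every array. Of 5 neutrophil markers 4 had a probe and 0 were tested. S100a9, Mpo and Ltf were not well above background anywhere, and S100a8 was so on the arrays numbered 2 alone. The sum of all 4 was 0.0754 and 0.0557 on testosterone and control replicate 2, against 0.0203 and 0.0198 on testosterone and control replicate 1. S100a8 read -5.13 and -5.00 on testosterone and control replicate 2, against -7.63 and -7.71 on testosterone and control replicate 1. Of 6 Leydig cell markers 5 were tested. Both arrays numbered 2 were lower in 4 of them (against 24.8% of all genes) and higher in 1, Star (against 38.4%). The sum of all 6 ran with Star, at 121.0 and 105.2 on testosterone and control replicate 2, against 94.0 and 101.2 on testosterone and control replicate 1. Without Star it was 41.6 and 39.2 on testosterone and control replicate 2, against 44.8 and 55.1 on testosterone and control replicate 1. The part of these cell types in the members' number differences was not tested.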

How the data were processed

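RNA from 2 testosterone and 2 control samples of cultured rat peritubular myoid cells was read on one-colour Agilent 4x44k arrays, grouped and numbered by the samples' titles. In the deposited scanner files each spot has a processed signal, a linear intensity, and flags for background, saturation and outliers. They were written by Feature Extraction 11.5.1.1 per the file headers, while the submitters' processing notes name version 10.5. The authors' deposited series table is on the log2 scale and equals the log2 processed signal minus 1 constant per array. It served as an alternative.

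The level of a probe was its log2 processed signal less the 75th percentile of the array's non-control spots. Control spots and those with an outlier flag were dropped, saturated ones kept, and spots of a probe averaged. The brightest probe stood for a gene, and a gene was tested if 1 group or both had it well above background on each of their arrays. Probes were named through the RefSeq gene table of GRCr8 (10835 by accession, 5201 by symbol, 3440 by older symbol), and the other 21536 kept the file's name. An older symbol of Mmp12, Mme, is now another gene's symbol and was not taken. Probe positions are those of the files (rn4), and promoter windows those of GRCr8.

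Testosterone and control were compared by lmFit and eBayes of limma 3.58.1 (R 4.3.3) over all genes, 2-sided, with Benjamini-Hochberg adjustment and no covariate. The fit was run on simulated data in which the arrays varied independently. Same-numbered arrays deviated together here, so that run does not show how the fit behaves on such data. Precision is limited by the number of arrays. Members and lists were chosen with earlier results of these data known. Named genes were all members, up to 4 of each list with the largest testosterone difference and up to 4 with the largest number difference among genes detected on every array, and the 5 genes most like Mmp7 by root mean square difference. Not every gene that rule takes is given in the text. Alternatives varied the detection filter, background correction, normalization, floor, source, probe choice, replicate block, damaged columns, replicates and fold threshold.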

Additional observations from a re-analysis of the deposited data

How the results depend on the processing

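No member was called by limma in any setting. Over all genes limma called 0 in every setting except without control replicate 2, where it called 35 (range over left-out arrays 0 to 35). Leaving out 1 array unbalances the numbers, so testosterone minus control then takes in part of the number difference, and the turned signs show nothing on stability. It ran from -2.32 to 1.71 in Mmp7, -0.84 to 1.66 in Mmp13, -0.72 to 0.93 in Mmp23, -0.58 to 0.53 in Mmp9, -0.19 to 0.62 in Mmp10, -0.12 to 0.53 in Mmp3, -0.45 to 0.18 in Mmp11 and -0.44 to 0.22 in Mmp12. In the unsaturated Mmp2 probe (chosen after seeing the data) it ran from 0.42 to 0.73. These fits assume that a lone array varies like the others. For the saturated probes of Mmp2 and Mmp14 no difference is given under any setting, nor for a mean that includes one, and without columns 57 to 85 Mmp11 has no value.

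Same-numbered arrays deviated together (r = 0.471 over 22019 genes, 1 pair of deviations). The labels do not say that a number marks a shared culture, and number and slide position cannot be told apart. With the replicate number as a block limma called 0 genes, and 619 had an unadjusted p under 0.05, against 176 without it; among members this was Mmp13 alone. Members higher on number 2 numbered 4 at 1.5-fold (against 13.6% of all genes) and 1 at 3-fold (against 1.34%), and Mmp7 was the 1 lower at each threshold. Mmp9, at 0.99 in the main setting, reached 2-fold in some alternatives. Its number difference was 1.00 without columns 57 to 85, 1.07 without control replicate 1 and 1.04 without control replicate 2. Leaving out 1 array gave a number difference of -4.08 to -3.57 in Mmp7 and 2.24 to 2.69 in Mmp13. The related genes, and the substrates and inducers (alternatives chosen after seeing the data), had 0 calls throughout.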
